A study of Homo sapiens with 6 samples.

Results

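The SOX transcription factor genes described here are 10 named genes of the family, SOX1, SOX2, SOX4, SOX5, SOX6, SOX9, SOX10, SOX11, SOX14 and SOX17, out of 56638 genes in a table of ChIP-seq read counts. They were chosen by name, with earlier results of these data known, and all 6 libraries of the table were used. The cells were G401, a malignant rhabdoid tumor line that lacks the SWI/SNF subunit SMARCB1, and no input read was assigned to SMARCB1 in either treatment. Cultures of this single line received the vehicle DMSO or 3 µM MAK683, a small molecule directed at EED, the PRC2 subunit that reads H3K27me3, and chromatin was collected after 3 days. Both marks, H3K27me3 and H3K4me3, and an input of unenriched chromatin were each read in 1 library per treatment, so nothing here has a replicate check and no p-value was computed. Library totals were between 13308099 and 21281877 counts, and for H3K27me3 the MAK683 total was 0.694 times that of DMSO. The table carries no spike-in scaling, so the values show how reads were spread over genes but not how much of a mark the cells held in total.

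SOX proteins bind DNA through an HMG box related to that of the sex-determining factor SRY, and they are sorted into subgroups by the similarity of this domain. They set cell identity in many tissues, among them the neural tube, the neural crest, cartilage and the endoderm. In embryonic stem cells many genes of this kind carry H3K27me3, the repressive mark written by PRC2, together with H3K4me3, the mark of active or poised promoters, a state called bivalent. SOX1 and SOX2 (subgroup B1) maintain neural progenitors, and SOX2 is also a pluripotency factor. SOX14 (B2) acts mainly as a repressor in the developing nervous system. SOX4 and SOX11 (C) are activators in differentiating neurons and in many progenitor cells. SOX5 and SOX6 (D) lack an activation domain of their own and work with SOX9 in cartilage. SOX9 and SOX10 (E) act in the neural crest, and SOX17 (F) acts in the endoderm and in blood vessels.

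Counts were obtained for 7 of the 10 genes. SOX2, SOX9 and SOX10 were at 0 in all 6 libraries, input included, so neither modification could be measured there. In GENCODE release 44 on GRCh37, other genes cover the whole span of each. SOX2 (chr3:181429713-181432224, 2.51 kb) lies inside SOX2-OT, a long noncoding gene that collected 17310 H3K27me3 counts with DMSO and 10896 with MAK683. SOX9 (chr17:70117161-70122557, 5.4 kb) lies inside the antisense gene SOX9-AS1, with 1379 and 1285 H3K27me3 counts. SOX10 (chr22:38366693-38383429, 16.7 kb) lies inside POLR2F, which encodes an RNA polymerase subunit and had 591 and 458. A count of 0 at these genes is therefore no measure of a missing mark. SOX1 is also covered whole, by SOX1-OT, but had counts in every library. SOX1-OT is listed in the table by its older name LINC00403, and its span in the annotation used for counting is not given in the sources used here.

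**Figure D1:**
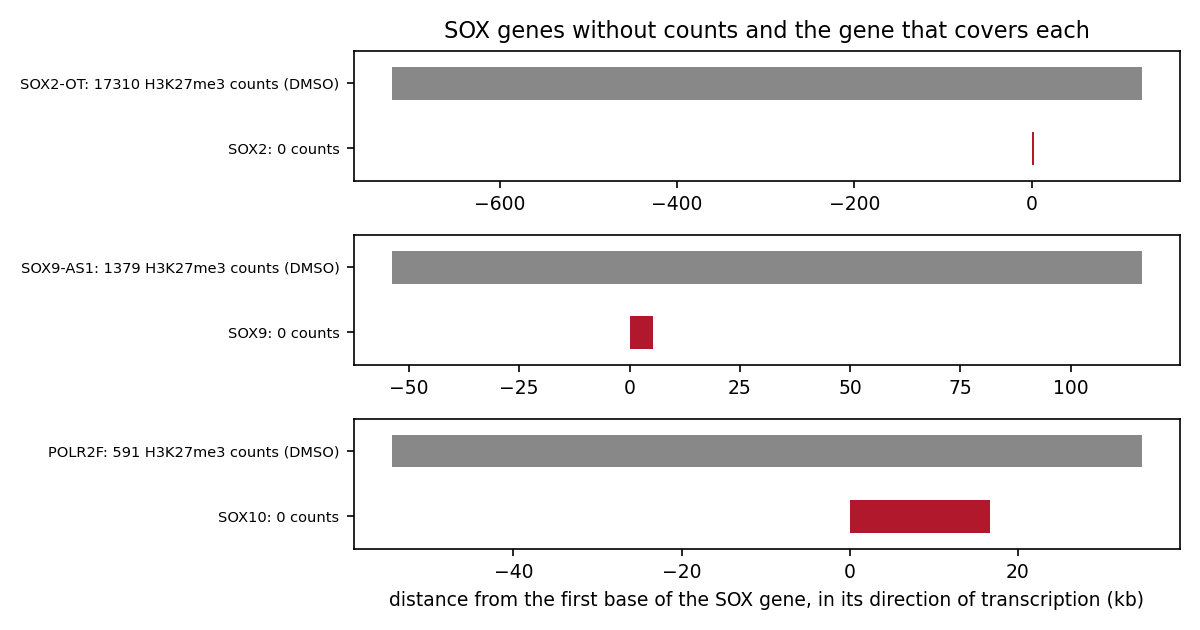
Span of SOX2, SOX9 and SOX10 (lower bars) and of the annotated gene that covers each (upper bars), in kb from the first base of the SOX gene. Each SOX gene lies wholly inside the other gene and had 0 counts, against 17310, 1379 and 591 H3K27me3 counts in DMSO at SOX2-OT, SOX9-AS1 and POLR2F.

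H3K27me3 stood high over input at 4 of the 7 measured genes, SOX1, SOX14, SOX4 and SOX17, and was under 2 times input at SOX11, SOX5 and SOX6. Levels over input are ratios of CPM, counts scaled to the library total, for genes with at least 10 input counts. Log2 levels and calls have 0.05 CPM added to both sides, whereas the times over input and their 95% exact intervals have no addition, and the intervals cover counting error only. Over all 29064 genes so measured in DMSO, 12.0% reached 2 times input, and in MAK683 8.45% did. The same 4 SOX genes reached it in each treatment. The median log2 level of the 7 genes was 2.52 in DMSO and 1.84 in MAK683, against -0.68 and -0.50 over all genes. The H3K27me3 count was lower in MAK683 at 6 of the 7 genes, where 85.3% of 29931 genes were lower in this smaller library, and only SOX4 was at least 2-fold lower, against 9.93% of all genes. SOX5 was the gene with a higher count, against 13.3% of all genes, and no SOX gene was at least 2-fold higher, against 1.42%.

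H3K4me3 reached 2 times input at SOX4 and SOX17, 2 of the 7 genes in each treatment, where 22.2% of all genes did in DMSO and 20.8% in MAK683. SOX6 was at least 2-fold below input in DMSO, 1 of the 7 genes, where 18.5% of all genes were. Another gene of the table overlaps the start of SOX6, so its promoter reads may be missing from its counts. Both modifications together reached 2 times input at these 2 genes, SOX4 and SOX17, in each treatment, a state found at 0.974% of all genes in DMSO and 1.13% in MAK683. For SOX17 this rests on H3K4me3 at the threshold, with a log2 of 1.01 in each treatment, which was 0.69 in DMSO and 0.77 in MAK683 with 1 CPM added, 0.94 and 0.95 with autosomal totals, and 0.69 and 1.24 with both inputs summed. The H3K4me3 count was higher in MAK683 at all 7 genes, where 36.7% of 30028 genes were higher. The smallest log2 ratio among them was 0.02, at SOX6, and the largest 0.84, at SOX1, so none was at least 2-fold higher, against 3.52% of all genes, or 2-fold lower, against 2.50%. Relative to input the log2 ratio was -0.09 at SOX11 and -0.00 at SOX17, so the direction held on that scale at 5 of the genes.

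**Figure D2:**
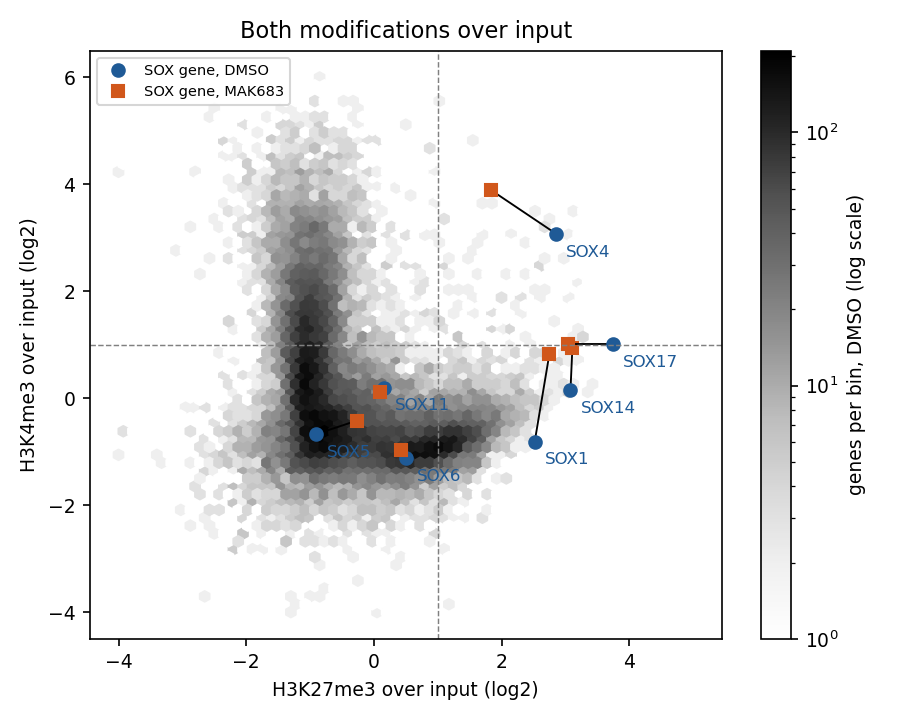
Log2 of H3K27me3 over input (horizontal) against H3K4me3 over input (vertical) for the 7 SOX genes with counts, in DMSO (circles) joined to MAK683 (squares), over the density of all genes in DMSO (grey, log scale). Dashed lines mark 2 times input, and SOX4 and SOX17 lie past both lines, SOX17 only just in H3K4me3 with a log2 of 1.01.

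The 250 bases before the first transcribed base are shown for the 4 measured genes with an entry in the RefSeq promoter table (GRCh38.p14), because CpG-rich promoters are the usual ground of both modifications. Each stretch matched GRCh37 exactly and once, at the positions given, and CpG dinucleotides are in capitals. SOX6 has several entries, and the one nearest to the GENCODE start of the gene is shown, which lies inside the GENCODE span, as does the end of the SOX5 stretch. No entry was used for SOX9, SOX10, SOX11, SOX14 and SOX17.
SOX1, chr13:112721213-112721462, plus strand: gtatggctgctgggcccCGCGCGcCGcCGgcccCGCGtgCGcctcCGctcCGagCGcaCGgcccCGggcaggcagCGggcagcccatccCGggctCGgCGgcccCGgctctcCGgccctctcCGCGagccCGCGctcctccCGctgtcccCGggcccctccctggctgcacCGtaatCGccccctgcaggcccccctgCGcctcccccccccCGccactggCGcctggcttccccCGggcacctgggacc
SOX4, chr6:21593732-21593981, plus strand: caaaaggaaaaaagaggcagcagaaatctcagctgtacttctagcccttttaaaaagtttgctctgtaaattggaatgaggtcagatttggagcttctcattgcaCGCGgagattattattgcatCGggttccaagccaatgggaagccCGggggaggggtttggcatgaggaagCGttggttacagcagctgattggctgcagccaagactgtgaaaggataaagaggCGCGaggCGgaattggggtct
SOX5, chr12:24715426-24715675, minus strand: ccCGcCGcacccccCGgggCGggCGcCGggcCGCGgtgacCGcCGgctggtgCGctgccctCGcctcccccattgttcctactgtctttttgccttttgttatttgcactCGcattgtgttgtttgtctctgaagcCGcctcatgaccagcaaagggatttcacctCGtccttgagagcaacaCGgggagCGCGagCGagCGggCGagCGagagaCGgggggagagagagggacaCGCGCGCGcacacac
SOX6, chr11:16760025-16760274, minus strand: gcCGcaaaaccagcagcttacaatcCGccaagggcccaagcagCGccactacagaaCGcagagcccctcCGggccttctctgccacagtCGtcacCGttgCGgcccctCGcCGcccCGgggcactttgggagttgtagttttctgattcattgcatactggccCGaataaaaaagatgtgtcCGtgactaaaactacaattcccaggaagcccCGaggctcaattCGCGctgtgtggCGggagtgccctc
The stretch of SOX1 held 31 CpG, that of SOX5 27, that of SOX6 17 and that of SOX4 8, against a median of 11 over 35116 promoters of the table. SOX4, with the fewest CpG of the 4, had the highest H3K4me3 over input of them. Counts cover whole genes, so they do not show which part of a gene carried the reads. The letters ACAAT, a core of the sites that SOX proteins bind, were searched on both strands. They occurred 2 times each before SOX5 and SOX6 and not before SOX1 and SOX4, and 24.6% of all promoters of the table hold them at least 1 time.

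SOX1 (chr13:112721463-112726020, GRCh37, plus strand) drives neural fate. The gene collected 298 H3K27me3 counts with DMSO and 151 with MAK683, 32 and 58 H3K4me3 counts, and 45 and 32 input counts. H3K27me3 was 5.82 times input in DMSO (interval from 4.24 to 8.15) and 6.92 times in MAK683 (4.7 to 10.5). MAK683 held 33.6% of its H3K27me3 counts (exact Clopper-Pearson interval from 29.3% to 38.2%), below the 41.0% that the library totals would give. This order depended on the scale, since the log2 ratio was -0.98 in counts and -0.45 in CPM but 0.25 relative to input, with an approximate 95% counting interval from -0.46 to 0.96. The share of its input counts found in MAK683, 41.6% (30.4% to 53.4%), was itself below the 53.7% of the input totals. H3K4me3 went from 0.563 times input (0.346 to 0.905) to 1.8 times (1.15 to 2.87), and MAK683 held 64.4% of the counts (53.7% to 74.3%) against 48.0% of the library totals. Relative to input its log2 ratio was 1.68 (0.78 to 2.58), so the H3K4me3 difference at SOX1 was larger than counting error on both scales.

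SOX14 (chr3:137483157-137485176, plus strand) is 2.02 kb long and overlaps no annotated gene. It collected 123 (DMSO) and 76 (MAK683) H3K27me3 counts, 17 and 24 H3K4me3 counts, and 12 input counts in each treatment. H3K27me3 was 9.01 times input (4.97 to 17.9) in DMSO and 9.29 times (5.02 to 18.8) in MAK683. MAK683 held 38.2% of its H3K27me3 counts (31.4% to 45.3%) and 58.5% of its H3K4me3 counts (42.1% to 73.7%). The share expected from the library totals fell inside each interval, and a change of either modification relative to them was not detectable at this depth.

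SOX4 (chr6:21593982-21598850, plus strand), a factor of progenitors and of several tumors, had the largest H3K27me3 difference between treatments among the 7 genes. The gene collected 415 H3K27me3 counts with DMSO and 141 with MAK683, 544 and 862 H3K4me3 counts, and 50 and 57 input counts. H3K27me3 was 7.29 times input in DMSO (5.43 to 9.99) and 3.63 times in MAK683 (2.65 to 5.02), intervals that do not overlap. MAK683 held 25.4% of its H3K27me3 counts (21.8% to 29.2%), and the log2 ratio was -1.55 in counts, -1.11 relative to the median of all genes, -1.03 in CPM and -1.01 relative to input (-1.62 to -0.39). Of all 29931 genes, 2.77% had a lower ratio. H3K4me3 was 8.61 times input in DMSO (6.44 to 11.7) and 15 times in MAK683 (11.5 to 20), and MAK683 held 61.3% of the counts (58.7% to 63.9%). SOX4 thus had less H3K27me3 and more H3K4me3 after MAK683 on each scale, beyond counting error, while its H3K27me3 over input in MAK683 was at percentile 98.8 of all genes. A noncoding gene on the other strand, not in the table under its present name, overlaps its start and leaves 62.1% of its span unshared.

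SOX11 (chr2:5832516-5841517, plus strand), the other gene of subgroup C, gave a different picture. It collected 42 (DMSO) and 41 (MAK683) H3K27me3 counts, 48 and 61 H3K4me3 counts, and 33 and 56 input counts. H3K27me3 was 1.12 times input (0.692 to 1.82) and then 1.07 times (0.7 to 1.64), and H3K4me3 was 1.15 times (0.724 to 1.85) and 1.08 times (0.741 to 1.59). All 4 intervals included the input level, and the shares of counts in MAK683, 49.4% (38.2% to 60.6%) and 56.0% (46.1% to 65.5%), had intervals that held those of the totals. Its input was low for its length, 3.67 counts per kb in DMSO against a median of 12 over 20233 genes with at least 10 input counts. A noncoding gene, not in the table under its present name, overlaps SOX11 and leaves 42.6% of its span unshared, while no gene of the table overlaps it. SOX4 and SOX11 therefore had intervals in DMSO that do not overlap, in H3K27me3 and in H3K4me3.

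**Figure D3:**
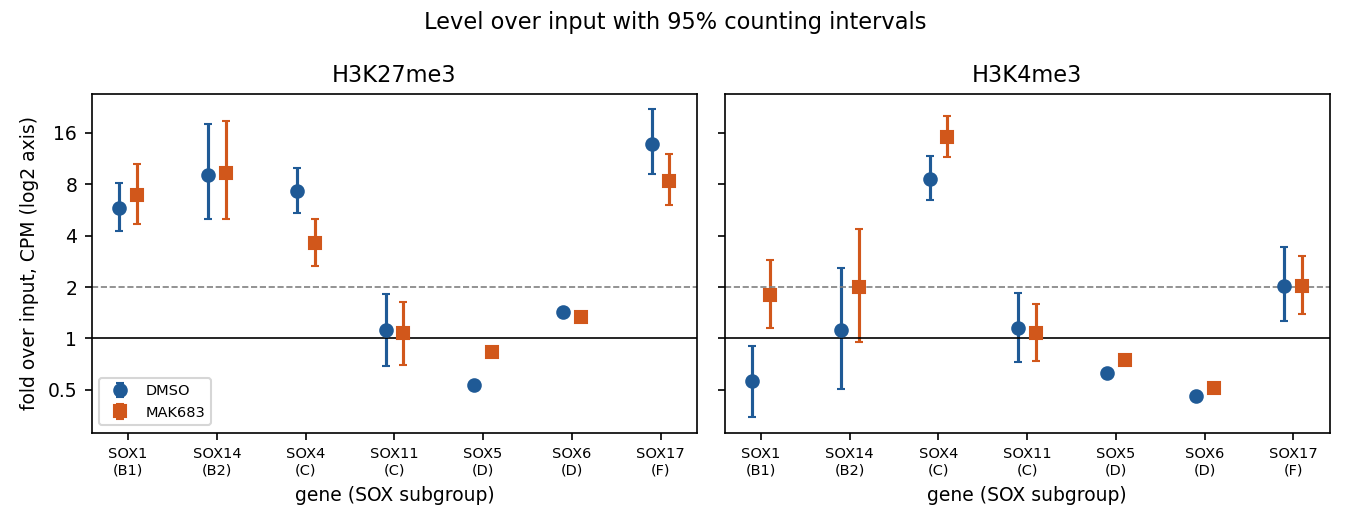
Fold over input of H3K27me3 (left) and H3K4me3 (right) at the 7 SOX genes with counts, on a log2 axis, in DMSO (circles) and MAK683 (squares) with 95% counting intervals; the solid line is the input level and the dashed line 2 times input. SOX4 went from 7.29 to 3.63 in H3K27me3 and from 8.61 to 15 in H3K4me3, and SOX11 lay at the input level throughout.

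SOX5 and SOX6, the subgroup D genes, are far longer than the others, at 1030 and 773 kb, so a narrow signal at a promoter weighs little in their counts. SOX5 (chr12:23682438-24715478, minus strand) collected 2790 H3K27me3 counts with DMSO and 2959 with MAK683, 3631 and 3934 H3K4me3 counts, and 4587 and 5227 input counts. It was the only measured member with a higher H3K27me3 count in MAK683. H3K27me3 was 0.534 times input in DMSO (0.51 to 0.56) and 0.83 times in MAK683 (0.793 to 0.869), below input in each. The log2 ratio was 0.08 in counts, 0.61 in CPM and 0.64 relative to input (0.54 to 0.73), and MAK683 held 51.5% of the counts (50.2% to 52.8%) where the library totals gave 41.0%. Over all genes the median log2 level moved the same way, from -0.68 to -0.50, and that of SOX5 from -0.90 to -0.27. H3K4me3 was 0.626 times input and then 0.748 times. Its input, 4.44 counts per kb in DMSO, was at percentile 7.33 of all genes.

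SOX6 (chr11:15987995-16761138, minus strand) collected 11913 (DMSO) and 7732 (MAK683) H3K27me3 counts, 4282 and 4343 H3K4me3 counts, and 7330 and 8434 input counts. H3K27me3 was 1.43 times input in DMSO (1.39 to 1.47) and 1.34 times in MAK683 (1.3 to 1.39), so SOX6 was above input where SOX5 was below it. MAK683 held 39.4% of the H3K27me3 counts (38.7% to 40.0%), and the log2 ratio was -0.10 in CPM and -0.09 relative to input (-0.15 to -0.03). This small difference was larger than counting error at these many counts. H3K4me3 was 0.462 times input and then 0.512 times, and MAK683 held 50.4% of the counts (49.3% to 51.4%). In GENCODE, C11orf58 on the other strand covers the start of SOX6 and the promoter stretch shown, and leaves 82.4% of the SOX6 span unshared. C11orf58 had 309 H3K4me3 counts with DMSO and 262 with MAK683. Whether reads at the start of SOX6 are in its counts is not known, so a low H3K4me3 here is no measure of its promoter.

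SOX17 (chr8:55370495-55373452, plus strand), a determinant of endoderm, had the highest H3K27me3 over input of the 7 genes in DMSO. The gene collected 378 H3K27me3 counts with DMSO and 235 with MAK683, 62 and 84 H3K4me3 counts, and 24 and 41 input counts. H3K27me3 was 13.8 times input in DMSO (9.16 to 21.9), and 4 of 29064 genes were higher. In MAK683 it was 8.4 times (6.01 to 12). MAK683 held 38.3% of its H3K27me3 counts (34.5% to 42.3%), an interval around the 41.0% of the totals. The log2 ratio was -0.16 in CPM and -0.72 relative to input (-1.48 to 0.04), so a change relative to other genes was not shown. H3K4me3 was 2.04 times input in DMSO (1.26 to 3.42) and 2.04 times in MAK683 (1.39 to 3.04). MAK683 held 57.5% of its H3K4me3 counts (49.1% to 65.7%), just above the 48.0% of the library totals, and 63.1% of its input counts (50.2% to 74.7%).

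**Figure D4:**
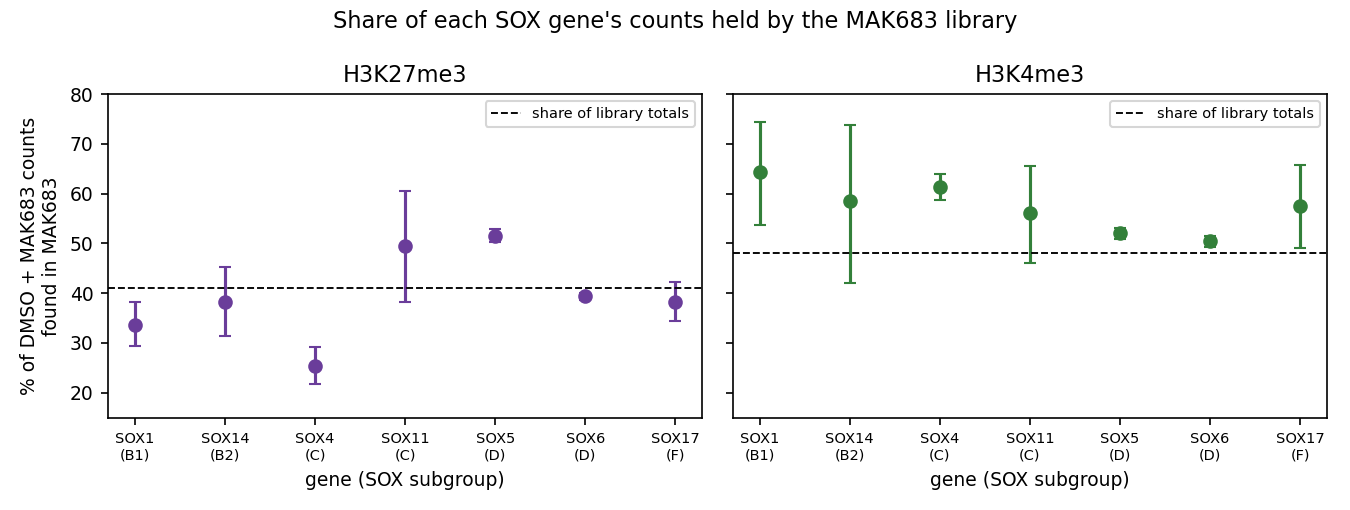
Share of each SOX gene's DMSO and MAK683 counts that was found in MAK683, for H3K27me3 (left) and H3K4me3 (right), in percent with 95% exact intervals; dashed lines give the share of the library totals, 41.0% and 48.0%. The whole intervals of SOX1, SOX4 and SOX6 lie below the line in H3K27me3 and that of SOX5 above it, and in H3K4me3 those of SOX1, SOX4, SOX5, SOX6 and SOX17 lie above it.

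Against the library totals, the interval of the H3K27me3 share was thus lower at 3 of the 7 genes, SOX1, SOX4 and SOX6, where 13.6% of all genes were lower, and higher at SOX5, where 22.7% were higher. In H3K4me3 it was higher at 5 genes, against 19.5% of all genes, and lower at none, against 21.3%. These calls depend on the number of counts, and SOX6, with the most counts, passed at a small difference. Relative to input, the approximate interval lay below 0 for H3K27me3 at SOX4 and SOX6 and above 0 at SOX5, and above 0 for H3K4me3 at SOX1, SOX4, SOX5 and SOX6. The share of all genes with such intervals was not computed, so whether these numbers are unusual is not known, and these intervals also narrow with the number of counts. SOX4 and SOX5 had the lowest and the highest share of H3K27me3 counts in MAK683 and their intervals do not overlap. In DMSO, H3K27me3 over input was in the order SOX17, SOX14, SOX4, SOX1, SOX6, SOX11 and SOX5. The intervals of neighbors among the first 4 overlap, as do those of SOX6 and SOX11, while those of SOX1 and SOX6, and of SOX11 and SOX5, do not.

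**Figure D5:**
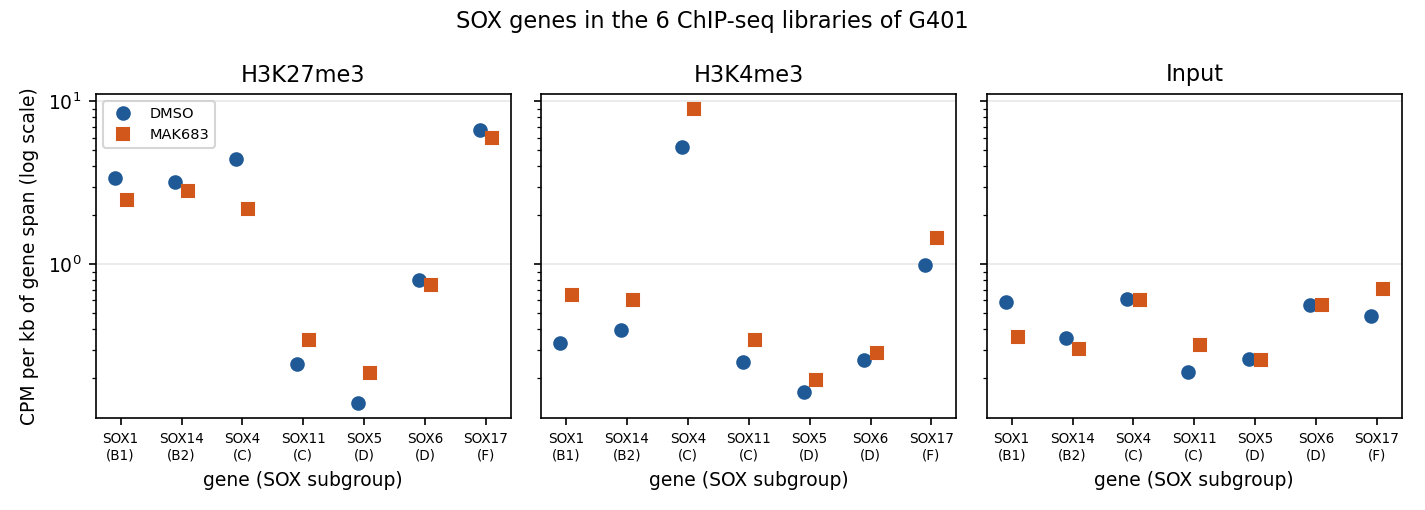
CPM per kb of gene span (log scale) for the 7 SOX genes with counts in the H3K27me3, H3K4me3 and input libraries of DMSO (circles) and MAK683 (squares), 1 library each. SOX4 has the highest H3K4me3 value in both treatments and SOX17 the highest H3K27me3 value, while the input values lie between 0.218 and 0.71.

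Genes with the most similar pattern were sought for the members with at least 50 counts in both inputs, by the distance over 4 log2 values over input, among 20675 genes. SOX4 was nearest to NKX3-2 (distance 0.5) and NEUROD2 (0.88), both developmental transcription factor genes. NKX3-2 collected 392 (DMSO) and 195 (MAK683) H3K27me3 counts, and 686 and 813 H3K4me3 counts. SOX6 was nearest to SLC27A6 (0.039), a fatty acid transport gene, and SOX5 to a pair of genes with clone names (0.024 and 0.045). Near SOX5 and SOX6 the genes lie close together, so a small distance sets no gene apart there.

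Of the 8 other SOX genes examined, SOX7, SOX8, SOX12, SOX13, SOX15, SOX18, SOX21 and SOX30, 6 had counts, and SOX12 and SOX15 were at 0 in all libraries. The counterpart of SOX14 in subgroup B2, SOX21, was the only one of 5 measured genes with H3K27me3 at least 2 times input in DMSO, against 12.0% of all genes. The gene collected 285 H3K27me3 counts with DMSO and 169 with MAK683, 152 and 292 H3K4me3 counts, and 31 and 34 input counts. H3K4me3 at SOX21 was 3.88 times input (2.62 to 5.91) and then 8.54 times (5.97 to 12.6). In GENCODE, SOX21 (2.92 kb) lies wholly inside the antisense gene SOX21-AS1 (100 kb). SOX21-AS1 had 271 and 112 H3K27me3 counts, 140 and 354 H3K4me3 counts, and only 40 and 59 input counts. SOX21 had more counts than SOX21-AS1 in each H3K27me3 library and in H3K4me3 with DMSO, but fewer in H3K4me3 with MAK683 and in each input. The counts of SOX21-AS1 therefore did not include all reads of SOX21. The span and strand setting used in the counting are not given in the sources used here, so how far the pair shares reads is not known. SOX8, of the same subgroup as SOX9 and SOX10, carried H3K4me3 at 9.57 times input in DMSO (7.53 to 12.3) and H3K27me3 at 1.35 times (0.995 to 1.84), so it was unlike SOX4 in the second mark. SOX8 H3K27me3 counts were 112 and 55, at least 2-fold lower in counts at this 1 of 5 genes, against 9.93% of all genes. The log2 ratio of SOX8 was -1.01 in counts, -0.49 in CPM and -0.80 relative to input, so the call did not hold once the library totals were allowed for. Noncoding genes at SOX loci differed in level. LINC00403, at SOX1, had H3K27me3 at 5.08 times input (2.86 to 9.71) in DMSO and 3.45 times (2 to 6.14) in MAK683, from 81 and 47 counts. SOX21-AS1 was at 5.95 times (4.26 to 8.52) and 2.78 times (2.01 to 3.88). H3K27me3 at SOX2-OT was 1.61 times input (1.57 to 1.66) in DMSO and 1.43 times in MAK683, whereas at SOX9-AS1 it was 0.766 times (0.712 to 0.824) and 0.942 times.

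Genes that act with the SOX factors were examined as lists. Of 15 neural crest factors, 9 had H3K27me3 at least 2 times input in DMSO, against 12.0% of all genes, with a median log2 of 1.46 against -0.68. In counts, H3K27me3 was at least 2-fold lower in MAK683 at 3 of them, against 9.93% of all genes, and higher at 1, against 1.42%. The 3 were SNAI2, DLX5 and MYCN, and in CPM none of them was 2-fold lower, with log2 ratios of -0.65, -0.51 and -0.73. H3K4me3 was at least 2-fold higher at SNAI2, DLX5 and MYCN, 3 of the 15, against 3.52% of all genes. Their log2 ratios were 1.97, 1.45 and 1.43 in counts and 1.98, 1.31 and 1.27 relative to input. SNAI2, which promotes migration of crest cells, collected 262 H3K27me3 counts with DMSO and 116 with MAK683, and 74 and 293 H3K4me3 counts. DLX5, a factor of facial cartilage and bone, had 487 and 237 H3K27me3 counts, and 76 and 209 H3K4me3 counts. MSX1 differed, with 32 H3K27me3 counts in each library and 2828 and 2050 H3K4me3 counts. Of 10 partner factors of SOX proteins, 9 had counts, and POU3F1 and POU3F2, neural POU factors that bind DNA beside SOX2, were the 2 with H3K27me3 at least 2 times input in DMSO, against 12.0% of all genes. POU3F2 had 375 and 210 H3K27me3 counts, and 168 and 362 H3K4me3 counts. Its H3K4me3 log2 ratio was 1.10 in counts and 0.37 relative to input, where its counts were 38 and 80. H3K4me3 was at least 2-fold higher in counts at 2 of the 9, POU3F2 and NANOG, against 3.52% of all genes. NANOG, with 32 and 67 H3K4me3 counts, had log2 ratios of 1.04 in counts, 1.16 in CPM and 1.34 relative to input. Its H3K4me3 stayed below input, at 0.246 times in DMSO and 0.634 times in MAK683. Of 10 genes known beside SOX17 in endoderm, 9 were measured, and H3K27me3 was at least 2 times input at 6 in DMSO, against 12.0% of all genes, and at 6 in MAK683, against 8.45%. GSC, a gene of the early organizer, had 271 and 218 H3K27me3 counts and 125 and 291 H3K4me3 counts, and was the 1 of 9 genes with H3K4me3 at least 2-fold higher in counts, against 3.52% of all genes. Its log2 ratio was 1.21 in counts but 0.63 relative to input, where its counts were 22 and 42. FOXA2, a pioneer factor of endoderm, was at 0.97 in counts, 1.08 in CPM and 1.05 relative to input.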

How the data were processed

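ChIP-seq of H3K27me3 and H3K4me3, with input, was analysed in G401 cells under DMSO or MAK683, 1 library each. The authors deposited raw counts per gene. Per the labels and methods, reads were trimmed (Trim Galore 0.4.4), aligned to hg19 with Bowtie2 and counted with featureCounts, and Picard 2.23.6 and deepTools 3.4.3 are also named. The annotation, strand setting and multi-gene rule of the counting are not given in the sources used here. A spike-in is described but is not part of the counts.

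From these counts (Python 3.11.15, pandas 2.3.3, scipy 1.17.1), the change was the log2 ratio of MAK683 to DMSO counts, 1 added to each, where either library reached 10 counts. The level was the log2 ratio of CPM to input CPM, 0.05 CPM added to each, for genes with at least 10 input counts. A gene was called at 2-fold. Intervals were 95% exact Clopper-Pearson intervals, and those of changes relative to input were normal approximations from the counts. The methods describe removal of repeated ChIP-seq reads with Picard, and any PCR duplicates left would make reads less than independent. All intervals cover counting error only. A floor of 3 counts was between 0.141 and 0.225 CPM. The scripts were tested on simulated data. Positions came from GENCODE release 44 on GRCh37, matched by symbol for 35179 genes, and promoter sequences from RefSeq. All members, overlapping genes, gene lists and nearest genes were eligible to be named. Members and lists were chosen with earlier results of these data known. Alternatives were other pseudocounts, minimum counts, scalings and a 1.5-fold call.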

Additional observations from a re-analysis of the deposited data

How the results depend on the processing

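With 1 library per treatment and antibody there was no replicate to leave out. No paired analysis was possible because the groups compared hold 1 library each and no test was made. The numbers of SOX genes past 2-fold changed as follows. With at least 50 input counts, H3K27me3 over input was called at 1 gene in place of 4, in DMSO and in MAK683, and H3K4me3 at 1 in place of 2 in each, since fewer genes were measured. H3K4me3 over input was also called at 1 gene in place of 2 with 1 CPM added and with autosomal totals, in DMSO and in MAK683, and with both inputs summed, in DMSO. SOX17, at a log2 of 1.01, sits at this threshold. With autosomal totals 1 gene in place of 0 was below input in H3K4me3 in MAK683. Relative to input, 1 gene in place of 0 was 2-fold higher in H3K4me3, SOX1. A 1.5-fold call gave 5 genes in place of 1 lower in H3K27me3 in MAK683, and 2 in place of 0 higher in H3K4me3. For levels it gave 1 gene in place of 0 below input in H3K27me3 in DMSO, 3 in place of 1 below input in H3K4me3 in DMSO, and 4 above in place of 2 and 1 below in place of 0 in MAK683. None of these settings reversed a called value, but values short of 2-fold were not counted here, and some of them changed sign. In H3K27me3, the log2 ratio of SOX1 was -0.98 in counts and 0.25 relative to input, and that of SOX14 was -0.69 and 0.04. Of the values of single genes, 176 lay inside the interval of the main setting and 32 outside it, and the causes were not tested. The 176 include the settings that change only the minimum counts, which cannot alter the value of a gene, so this number overstates stability. Depth limits SOX14, SOX17, SOX1 and SOX11 most, with between 12 and 56 input counts per treatment. SOX4 had little more, with 50 input counts in DMSO and 57 in MAK683.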

Other observations

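Genes of tissues that SOX9 and SOX10 specify were examined as a pair of further lists. Of 11 cartilage genes with counts, which include the collagens and proteoglycans of the cartilage matrix, 2 had H3K27me3 at least 2 times input in DMSO, against 12.0% of all genes, and none in MAK683, against 8.45%. HAPLN1, 1 of the 2, sat at the threshold, at 2 times input (1.86 to 2.15) in DMSO and 1.97 times (1.83 to 2.14) in MAK683. The other, COMP, a matrix protein of cartilage, was at 2.07 times (1.68 to 2.55) and 1.51 times (1.18 to 1.92). The median log2 level in DMSO was -0.43, against -0.68 over all genes. MAK683 had the lower H3K27me3 count at each of the 11, where 85.3% of all genes were lower, and at COMP by at least 2-fold, against 9.93%. In CPM, COMP had a log2 ratio of -0.60, and COL9A1, COL9A3, COL11A1 and MATN1 were higher in MAK683, at 0.09, 0.20, 0.20 and 0.24. H3K4me3 was at least 2-fold different in counts at none of the 11, where 3.52% of all genes were higher and 2.50% lower. Of 12 glial and melanocyte genes none had H3K27me3 at least 2 times input in DMSO, against 12.0% of all genes, or in MAK683, against 8.45%. Their median log2 level in DMSO was -0.09, against -0.68 over all genes, and 8 of the 12 were above that median of all genes. S100B, a calcium-binding protein of glia, was the 1 gene of that list with at least 2-fold lower H3K27me3, against 9.93% of all genes, with 72 counts in DMSO and 22 in MAK683. Its log2 ratio was -1.67 in counts, -1.16 in CPM and -1.06 relative to input. In DMSO its H3K27me3 was already below input, at 0.659 times (0.479 to 0.904). None of the 12 differed by 2-fold or more in H3K4me3 counts, where 3.52% of all genes were higher and 2.50% lower.

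In the endoderm list, H3K27me3 was at least 2-fold lower in counts at 2 of 9 genes, against 9.93% of all genes. EOMES had 138 and 49 counts, with a log2 ratio of -1.48 in counts and -0.96 in CPM, short of 2-fold. MIXL1 had 46 and 14, with -1.65 and -1.15. Both encode factors of the early mesendoderm.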
